A study of Mus musculus with 12 samples.

Results

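The 9 genes described here encode the chains of the receptors for the myeloid cytokines CSF1, GM-CSF, G-CSF, IL-3, IL-5 and IL-6. They were chosen by the cytokine that the receptor binds, and they are 9 of the 24028 genes counted in mouse bone marrow RNA. The rule sets no threshold on any value. The choice was made with earlier results of the same libraries known, including the levels of these genes in both comparisons, so the counts of members called are given as a description and support nothing.

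The 12 libraries fall into 4 groups of 3, all from C57BL/6 bone marrow. The control group (wt LSK) is wild-type marrow sorted after lineage depletion by c-kit and Sca-1, a gate rich in blood stem and early progenitor cells. The leukemic groups came from mice with the iMLL-ENL allele, a doxycycline-inducible knock-in of the leukemia fusion of MLL with ENL, which received doxycycline until acute leukemia developed. Their cells were taken from total marrow (iMLL-ENL total) or sorted for high or low surface B220 (B220 HIGH, B220 LOW), the B-lineage form of CD45. The labels name 3 animals per genotype but no animal for a library. They give no age, no dose and no promoter for the inducible allele, and mention no doxycycline for the controls. Genotype, drug and the kind of cells sampled therefore cannot be told apart between wt LSK and iMLL-ENL total.

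Cytokine receptors of this kind decide which growth factors a blood progenitor can answer. CSF1R is a receptor tyrosine kinase of monocytes and macrophages. G-CSF binds pairs of CSF3R chains on granulocyte precursors and neutrophils. GM-CSF, IL-3 and IL-5 each have an alpha chain of their own (CSF2RA, IL3RA, IL5RA) and signal through the common beta chain CSF2RB, while the mouse also carries CSF2RB2, a second beta chain that serves IL-3 alone. IL-6 binds IL6RA, and the complex signals through gp130, the product of Il6st. Chains without kinase activity of their own pass the signal to JAK kinases and STAT factors, and SOCS proteins and CISH, whose genes STATs switch on, damp it again.

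The beta chain genes Csf2rb (gene ID 12983, chromosome 15, 78325800 to 78351001) and Csf2rb2 (gene ID 12984, chromosome 15, 78282507 to 78305721, both GRCm38.p6) lie next to each other and are near copies, which bears on every value given for them. Their longest coding sequences in the GENCODE annotation of GRCm38 were 2688 and 2634 bases long and 95.2% identical over the aligned bases. The stretch of 120 aligned bases with the most differences is shown first, because reads there can be told apart. Capitals mark the 17 bases that differ, and the stretch covers coding positions 358 to 477 of Csf2rb and 361 to 480 of Csf2rb2, counted from the start codon.
Csf2rb: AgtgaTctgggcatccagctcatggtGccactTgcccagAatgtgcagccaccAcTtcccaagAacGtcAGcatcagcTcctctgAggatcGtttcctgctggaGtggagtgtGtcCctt
Csf2rb2: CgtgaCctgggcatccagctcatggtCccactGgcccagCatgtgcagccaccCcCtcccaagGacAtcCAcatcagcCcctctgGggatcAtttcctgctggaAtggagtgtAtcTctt
The longest run without any difference held 242 bases, at coding positions 2083 to 2324 in both genes, and is shown because a read inside it fits either gene equally well.
Csf2rb and Csf2rb2: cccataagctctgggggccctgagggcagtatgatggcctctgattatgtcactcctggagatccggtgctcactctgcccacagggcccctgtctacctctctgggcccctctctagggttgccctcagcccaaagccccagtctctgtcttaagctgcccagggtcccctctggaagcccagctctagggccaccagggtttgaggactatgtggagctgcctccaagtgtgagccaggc
Of all 50-base windows of the coding sequence, 26.0% of those of Csf2rb also occur in Csf2rb2, and 26.6% the other way. How the authors' counting shared such reads is not given in the sources used here, so the split between these genes is uncertain, and each of their fold changes is also given for the summed counts.

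Levels are given as CPM, a gene's counts scaled to a common library size of 1000000. Between wt LSK and iMLL-ENL total, 5 of the 9 genes rose (Csf1r, Csf2ra, Csf2rb, Csf2rb2 and Il6ra), 1 fell (Il5ra), and 3 did not pass the test (Csf3r, Il3ra and Il6st). All 9 were tested. By the same test, edgeR's quasi-likelihood test with a Benjamini-Hochberg adjusted p under 0.05, 30.6% of the 13811 genes tested were called, 15.5% as higher and 15.1% as lower in iMLL-ENL total. The median log2 change was 1.61 over the members and 0.05 over all genes tested. Libraries of the groups did not overlap for 6 members, against 48.5% of all genes tested. Scaling by library totals alone moved the median of all genes from 0.05 to -0.10 and split the calls into 1689 higher and 2447 lower, with the same 6 members called.

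**Figure D1:**
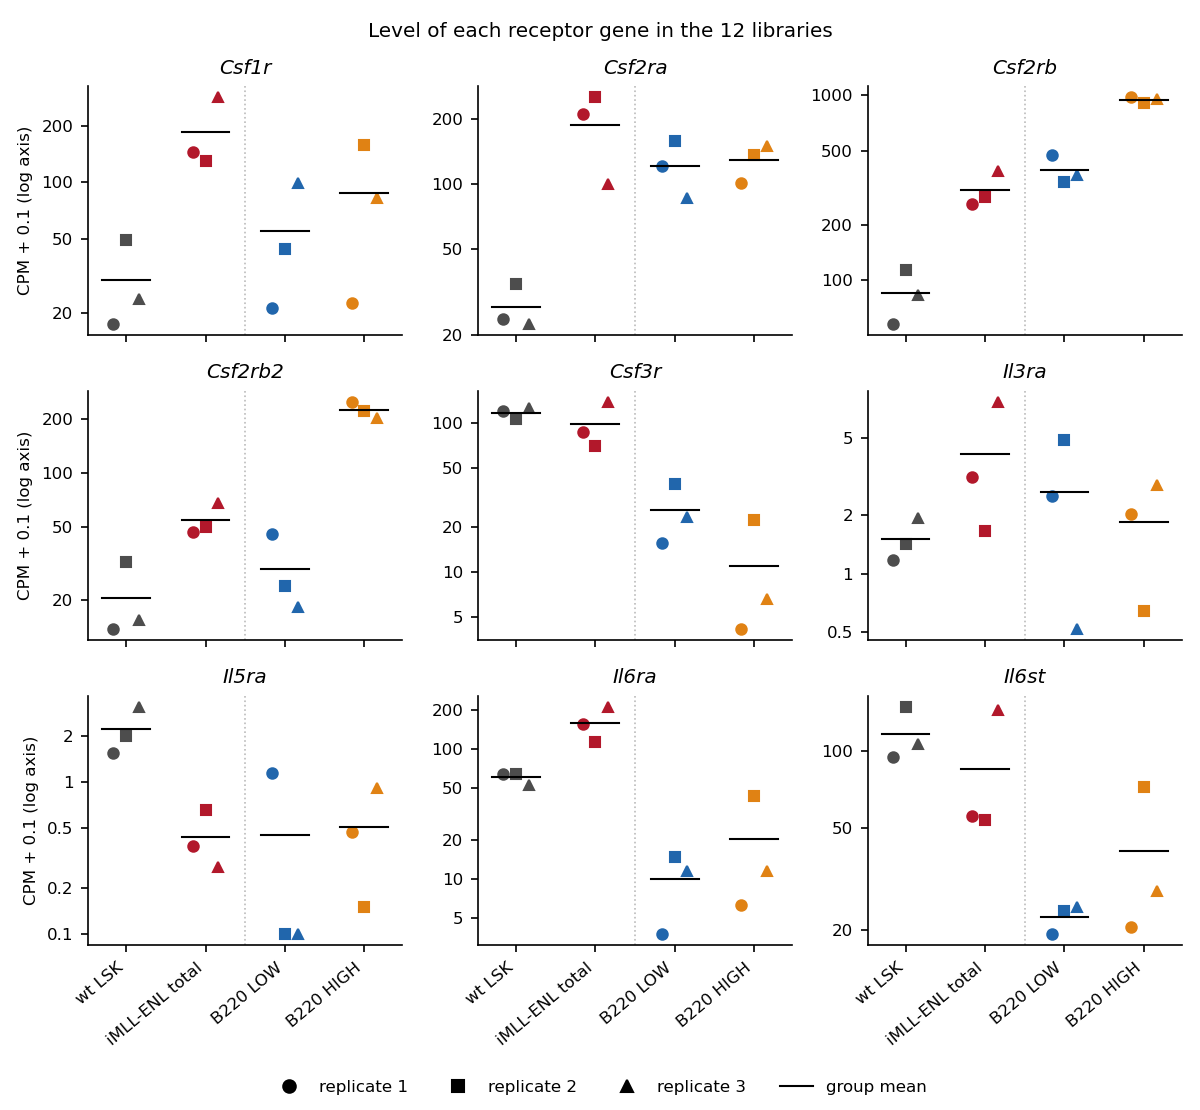
Level of each receptor gene as CPM over the library total (plus 0.1, on a log axis that differs between panels) for the 3 libraries of each of the 4 groups. Symbols give the replicate number and bars the group mean, and the dotted line parts the 2 count tables, across which nothing was tested. All 3 B220 HIGH libraries stand above every other library for Csf2rb and Csf2rb2, and all 6 sorted libraries stand below iMLL-ENL total for Csf3r and Il6ra.

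The receptor tyrosine kinase gene Csf1r (gene ID 12978, chromosome 18) was higher in the leukemic marrow, at a mean of 186 against 30.1 CPM. Its level was 17.4, 49.0 and 23.9 CPM in wt LSK replicates 1, 2 and 3, and 144, 130 and 283 CPM in iMLL-ENL total. Every leukemic library stood above every control library, and wt LSK replicate 2 was the highest control. The log2 change was 2.81 ± 0.45 (SE), with an edgeR adjusted p of 0.0025. Most genes that mark monocytes and macrophages moved with it. In iMLL-ENL total 8 of 12 such markers were called higher and none lower. The macrophage marker Mrc1 went the other way, at 2.20 against 7.88 CPM by group means, without overlap or a call (edgeR adjusted p 0.153). The summed level of the 12 ran from 2673 to 6466 CPM, against 194 to 536 CPM in wt LSK, where none was at 0. In bulk RNA a change in the number of cells of a type and a change of RNA per cell cannot be told apart, and the part of monocytic cells in the Csf1r result was not tested.

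Csf3r (gene ID 12986, chromosome 4, 126023441 to 126044975), the G-CSF receptor gene, stayed near its control level. It measured 120, 106 and 127 CPM in wt LSK and 87.2, 70.05 and 139 CPM in iMLL-ENL total. The highest and the 2 lowest of these 6 libraries were all leukemic, so the groups overlapped. The log2 change was -0.10 ± 0.28 (SE), with an edgeR adjusted p of 0.82, and it turned to 0.00642 without iMLL-ENL total replicate 1 and to 0.107 without replicate 2. Neutrophil genes did move in the same libraries. Of the 13 neutrophil markers tested, 11 rose and none fell, with sums of 6126 to 25092 CPM in iMLL-ENL total and 1224 to 2109 CPM in wt LSK.

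The GM-CSF alpha chain gene Csf2ra (gene ID 12982, chromosome 19, 61217191 to 61228461) had a log2 change of 2.96 ± 0.35 (SE), with an edgeR adjusted p of 0.000546, close to that of Csf1r. It measured 23.5, 34.2 and 22.3 CPM in the controls and 210, 252 and 99.6 CPM in iMLL-ENL total. The groups did not overlap, although leukemic replicate 3 was well below the other two. Il3ra (gene ID 16188, chromosome 14, 14345912 to 14355493), the IL-3 alpha chain gene, was low throughout. It stood at 1.07, 1.32 and 1.84 CPM in wt LSK and at 3.06, 1.56 and 7.53 CPM in iMLL-ENL total, from 20 to 171 counts a library. Leukemic replicate 2 lay within the control range. The log2 change of 1.69 ± 0.68 (SE) did not pass the test, with an edgeR adjusted p of 0.0948. Without that library it was 2.09, with an edgeR adjusted p of 0.0264.

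Il5ra (gene ID 16192, chromosome 6, 106710375 to 106749037), the IL-5 alpha chain gene of eosinophils and some B cells, was the only member lower in the leukemic marrow. It had 27, 35 and 59 counts in wt LSK and 6, 10 and 4 in iMLL-ENL total, which is 1.45, 1.92 and 3.01 CPM against 0.278, 0.556 and 0.176 CPM. The leukemic values are close to what 3 counts are worth in those libraries, 0.132 to 0.167 CPM. The log2 change was -2.50 ± 0.72 (SE), with an edgeR adjusted p of 0.0294. That call was lost without iMLL-ENL total replicate 1 (adjusted p 0.0724) or 3 (0.0736) and without wt LSK replicate 1 (0.0706), 2 (0.0704) or 3 (0.154) in the same edgeR test. Of the 4 eosinophil markers tested 2 rose (Siglecf and Ear2) and none fell. The sum of all 8 listed was 52.4 to 215 CPM in iMLL-ENL total and 10.04 to 26.6 CPM in wt LSK. Siglecf was the largest part of it, at 33.5, 206 and 44.2 CPM in iMLL-ENL total. Prg2, at 10.3, 0.500 and 30.5 CPM there, was not called (edgeR adjusted p 0.263). The part of eosinophils in the Il5ra result was not tested.

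Both beta chain genes rose with Csf2ra. Csf2rb measured 58.0, 113 and 83.7 CPM in wt LSK and 258, 284 and 388 CPM in iMLL-ENL total, a log2 change of 2.04 ± 0.27 (SE) with an edgeR adjusted p of 0.00102. Csf2rb2, the scarcer of the pair, measured 13.6, 32.0 and 15.3 CPM and then 46.9, 50.1 and 68.0 CPM. Neither gene's groups overlapped, and the control library highest for one was highest for the other. The Csf2rb2 log2 change was 1.61 ± 0.35 (SE) with an edgeR adjusted p of 0.00913, and the adjusted p was 0.0534 without wt LSK replicate 1. With the counts of both genes summed the log2 change was 1.97, with an edgeR adjusted p of 0.00135.

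Of the IL-6 receptor chain genes, Il6ra was called and Il6st was not. Il6ra (gene ID 16194, chromosome 3, 89869324 to 89913196), the ligand-binding chain, measured 64.9, 64.1 and 53.3 CPM in wt LSK and 156, 115 and 212 CPM in iMLL-ENL total. Every leukemic library was above the controls, and the log2 change was 1.56 ± 0.26 (SE) with an edgeR adjusted p of 0.00283. Il6st (gene ID 16195, chromosome 13, 112464070 to 112506860), the signalling chain gp130 of the whole IL-6 family, measured 94.96, 148 and 106 CPM and then 55.9, 53.8 and 145 CPM. Leukemic replicates 1 and 2 were below all controls and replicate 3 was among them, so the groups overlapped. The log2 change was -0.28 ± 0.40 (SE) with an edgeR adjusted p of 0.643, and without leukemic replicate 3 it was -0.9996 with an adjusted p of 0.0159. The ratio of Il6ra to Il6st, both per kilobase of the deposited gene width (RPKM), was 1.25 ± 0.30 (SD, n = 3) in wt LSK and 4.92 ± 1.54 (SD, n = 3) in iMLL-ENL total. All 3 leukemic ratios (6.45, 4.94 and 3.37) were above all control ratios. The exact two-sided permutation p was 0.1, the smallest that 3 against 3 libraries allow, and 0.167 after Benjamini-Hochberg adjustment over the 10 ratio comparisons made.

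**Figure D2:**
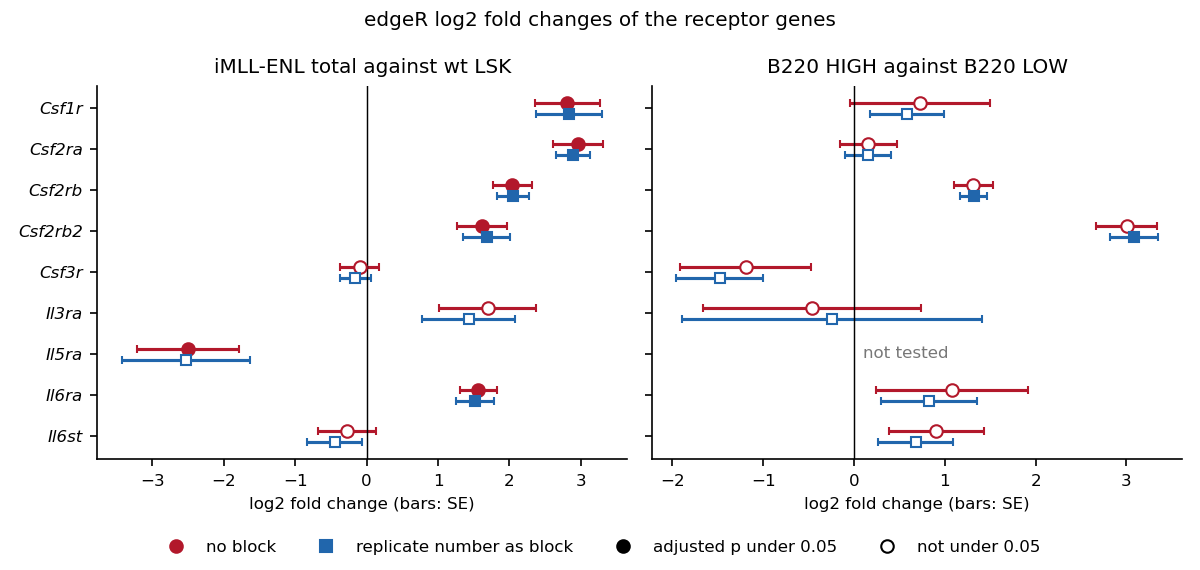
edgeR log2 fold changes of the receptor genes with their standard errors, for iMLL-ENL total against wt LSK (left) and B220 HIGH against B220 LOW (right). Red circles come from the fit without a block and blue squares from the fit with the replicate number as a block; filled symbols have an adjusted p under 0.05. On the right, Csf2rb and Csf2rb2 are filled in the blocked fit only, and Il5ra had too few counts to be tested.

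Within the leukemia, the beta chain genes had the smallest edgeR p-values between B220 HIGH and B220 LOW among the 8 members tested. The edgeR test without a block called neither. By size of log2 change in the blocked fit, Csf3r (-1.48) exceeded Csf2rb (1.32). Csf2rb2 measured 246, 220 and 200 CPM in B220 HIGH replicates 1, 2 and 3 and 45.9, 23.7 and 18.0 CPM in B220 LOW. Csf2rb measured 977, 907 and 951 CPM against 475, 339 and 371 CPM. Neither gene's groups overlapped, which held for 2 of the 8 members tested and for 13.4% of the 12564 genes tested.

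No gene passed an adjusted p of 0.05 in this comparison by edgeR without a block (0% of 12564), while 880 genes (7.004%) had an unadjusted p under 0.05, DESeq2 called 232 and limma-voom called 1. Csf2rb2 ranked 2 of 12564 by its p of 1.03e-05, with a log2 change of 3.002 ± 0.34 (SE) and an edgeR adjusted p of 0.0649. With the replicate number as a block its log2 change was 3.08 ± 0.26 (SE), with an edgeR adjusted p of 0.00234. Csf2rb ranked 15, with a log2 change of 1.31 ± 0.22 (SE) and an edgeR adjusted p of 0.132, and in the blocked edgeR fit it stood at 1.32 ± 0.15 (SE) with an adjusted p of 0.00642. The blocked fit called 0.581% of all genes as higher, and these 2 members were among them. DESeq2 gave adjusted p-values of 1.03e-13 for Csf2rb2 and 1.63e-05 for Csf2rb. The Csf2rb2 adjusted p in edgeR without a block was 0.0234 without B220 HIGH replicate 1 and 0.0193 without B220 LOW replicate 1. With any other single library left out, that test called no gene. With both genes' counts summed the log2 change was 1.52, with an edgeR adjusted p of 0.126.

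Genes that mark basophils and mast cells, which answer to IL-3, were high in some of the same libraries. The sum of the 8 listed was 145 to 1605 CPM in B220 HIGH and 47.3 to 135 CPM in B220 LOW. Cpa3, a mast cell protease gene, measured 819, 52.5 and 876 CPM in B220 HIGH replicates 1, 2 and 3 and at most 11.4 CPM in B220 LOW, and Gata2, a transcription factor of mast cells and progenitors, 334, 29.3 and 389 CPM against 25.7, 17.9 and 72.3 CPM. Hdc, which makes histamine, measured 252, 53.2 and 306 CPM in B220 HIGH and at most 11.8 CPM in B220 LOW. B220 HIGH replicate 2 was the lowest HIGH library for Cpa3, Gata2 and Hdc and still stood above every LOW library for Cpa3 and Hdc. Ms4a2 (24.2 against 11.0 CPM) and Mcpt8 (16.9 against 17.8 CPM) differed less by group means, and Fcer1a and Tpsb2 had 0 counts in all 6 sorted libraries. Of the 5 markers tested edgeR without a block called none, as of all genes, with the smallest p for Hdc (8.65e-05, adjusted p 0.126). DESeq2 called Cpa3 and Hdc, and edgeR with the replicate block called Cpa3. Markers of other cells moved too. The eosinophil gene Epx measured 28.6, 3.14 and 32.3 CPM in B220 HIGH and at most 0.786 CPM in B220 LOW. Of the 3 eosinophil markers tested, Siglecf went the other way without a call. It stood at 12.9 CPM in B220 HIGH and 25.7 CPM in B220 LOW by group means. Epx, the eosinophil gene Prg2 and the macrophage gene Adgre1 were called higher by DESeq2 and by the blocked edgeR fit. DESeq2 also called the monocyte markers Cd68 and Fn1 and the neutrophil gene Mmp8 higher. The median log2 change was 1.57 over the 11 monocyte and macrophage markers tested and 1.43 over the 13 neutrophil markers. By group means the monocyte marker Ly6c2 was lower in B220 HIGH (99.8 against 171 CPM). F13a1, of the same list, differed little (56.2 against 56.4 CPM). The neutrophil genes Elane and Mpo were called lower in the blocked fit. Prtn3, also a neutrophil gene, had no call but was lower in B220 HIGH without overlap (49.1 against 334 CPM by group means). The part of any of these cells in the Csf2rb2 result was not tested. B220 is a form of the Ptprc product: Ptprc itself measured 562 ± 34 CPM in B220 HIGH and 427 ± 185 CPM in B220 LOW (SD, n = 3), with an edgeR adjusted p of 0.852. The 10 B-lineage markers summed to 8.79, 17.1 and 106 CPM over the HIGH libraries in rising order, and to 7.20 to 14.9 CPM in LOW, where Pax5, Igll1, Blnk and Rag1 had 0 counts.

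The remaining members had no call between the fractions. Csf3r was lower in B220 HIGH in 3 of 3 same-numbered pairs and Il6st higher in 3 of 3. The Il6st differences in log2(CPM + 1) were only 0.0855 and 0.205 in replicates 1 and 3, and 1.58 in replicate 2. The share of all genes with 3 of 3 pairs in the same direction was not counted. Csf3r stood at 4.03, 22.2 and 6.47 CPM against 15.5, 38.9 and 23.2 CPM. Its groups overlapped, and its log2 change was -1.19 ± 0.72 (SE) with an edgeR adjusted p of 0.823, and -1.48 ± 0.47 (SE) with an adjusted p of 0.27 in the blocked fit. Csf1r measured 22.6, 157 and 81.9 CPM in HIGH and 21.3, 43.8 and 98.3 CPM in LOW. Replicate 1 was the lowest library of both fractions for this gene. Csf2ra, at 101, 137 and 150 CPM in HIGH and 121, 157 and 86.4 CPM in LOW, had the smallest log2 change, 0.16 ± 0.31 (SE). Il6ra (6.23, 43.5 and 11.4 CPM in HIGH, 3.67, 14.6 and 11.4 CPM in LOW) and Il6st (20.4, 72.4 and 28.4 CPM, then 19.2, 23.6 and 24.5 CPM) were both highest in HIGH replicate 2. Their log2 changes were 1.08 ± 0.84 and 0.91 ± 0.52 (SE), and that of Il6ra was -0.108 without HIGH replicate 2. Il3ra stayed between 0.421 and 4.76 CPM over the 6 libraries. Il5ra, which did not reach the count needed for a test, had 4, 1 and 16 counts in HIGH and 16, 0 and 0 in LOW.

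**Figure D3:**
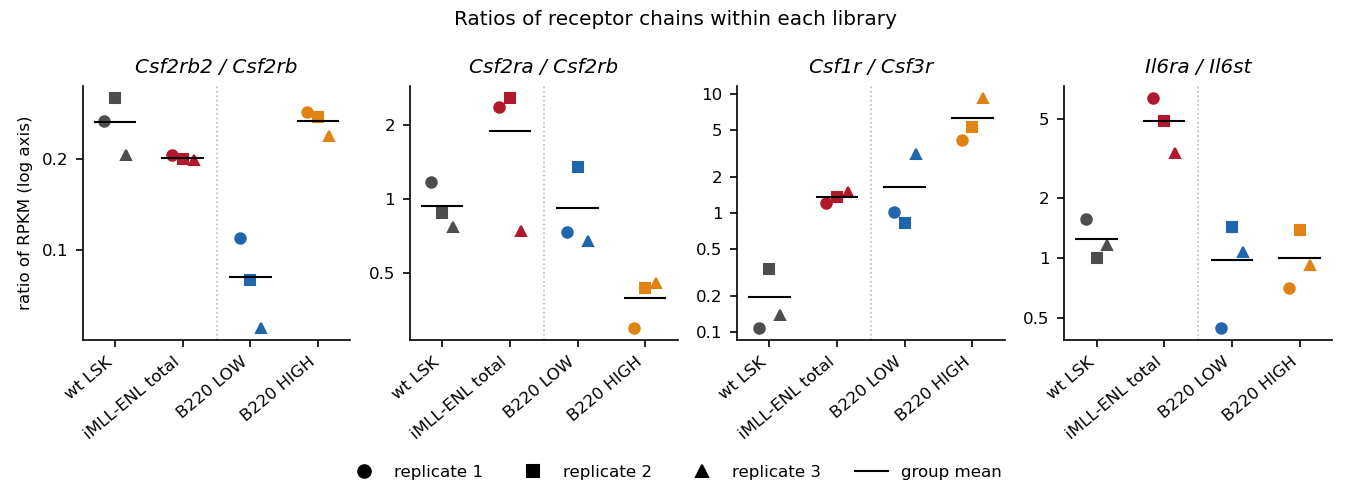
Ratios of receptor chains within each library, in RPKM on log axes, by group; symbols give the replicate and bars the group mean. The Csf2rb2 to Csf2rb ratio is lowest in the 3 B220 LOW libraries, the Csf1r to Csf3r ratio is lowest in wt LSK and highest in B220 HIGH, and the Il6ra to Il6st ratio is highest in iMLL-ENL total.

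Ratios taken within a library do not depend on its scaling. Csf2rb2 stood at 0.284, 0.274 and 0.238 of the Csf2rb level (RPKM) in B220 HIGH and at 0.109, 0.0790 and 0.0548 in B220 LOW. Group means of this ratio were 0.263 ± 0.056 in wt LSK, 0.201 ± 0.0042 in iMLL-ENL total, 0.0809 ± 0.027 in LOW and 0.265 ± 0.024 in HIGH (SD, n = 3). The ratio of Csf2ra to Csf2rb was 0.397 ± 0.085 in HIGH and 0.919 ± 0.37 in LOW (SD, n = 3), and again the libraries did not overlap. The ratio of Csf1r to Csf3r was 0.194 ± 0.13 in wt LSK, 1.36 ± 0.14 in iMLL-ENL total, 1.65 ± 1.3 in LOW and 6.21 ± 2.7 in HIGH (SD, n = 3), with no overlap within either comparison. Each of these differences within a table, and that of Csf2rb2 to Csf2rb between iMLL-ENL total and wt LSK, had an exact two-sided permutation p of 0.1, or 0.167 adjusted over the 10.

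Among the members themselves, the order of levels per gene length differed between groups. In wt LSK Csf3r led at 29.1 ± 2.6 RPKM (SD, n = 3), and no other member's libraries reached its range. Il6ra, Csf2rb, Il6st and Csf2ra followed between 14.4 and 18.2 RPKM, each overlapping its neighbour in the order. In iMLL-ENL total Csf2ra led at 101 ± 43 RPKM, ahead of Csf2rb at 57.9 ± 13 and Il6ra at 48.2 ± 15 RPKM (SD, n = 3), and neighbours overlapped down to Csf3r at 24.4 RPKM. B220 LOW was led by Csf2rb at 73.8 ± 13 and Csf2ra at 65.8 ± 19 RPKM (SD, n = 3), which overlapped, with the next member, Csf1r, at 9.89 RPKM. In B220 HIGH the first 3 members, Csf2rb at 177 ± 6.6, Csf2ra at 69.9 ± 14 and Csf2rb2 at 46.9 ± 4.8 RPKM (SD, n = 3), did not overlap. Il3ra and Il5ra closed the order in all 4 groups. Of the 3 alpha chains that pair with the beta chains, Csf2ra made up 84.8% to 99.5% of the summed RPKM in every library.

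The sorted fractions and the total marrow stand in separate tables and were not tested against each other. All 6 sorted libraries lay below all 3 iMLL-ENL total libraries for Il6ra (3.67 to 43.5 CPM against 115 to 212 CPM) and Csf3r (4.03 to 38.9 CPM against 70.05 to 139 CPM). The same held for 8.84% of the 12726 genes with a mean of at least 1 CPM over these 9 libraries, and 11.7% lay above. No member had all 6 sorted libraries above the total marrow, and the sorted libraries of the other members overlapped it. B220 HIGH and B220 LOW were thus both low in Il6ra and Csf3r beside the total marrow, and whether this follows the sort or the table cannot be told apart.

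The ligand genes were scarce. Of 7 ligand genes, only Csf1 had enough counts to be tested between iMLL-ENL total and wt LSK, at 5.25 ± 3.5 against 9.62 ± 1.5 CPM (SD, n = 3), with an edgeR adjusted p of 0.351. Il3 had 0 counts in all 12 libraries, and Csf2, the GM-CSF gene, had none outside B220 HIGH, where it had 18 in all. Csf3, the G-CSF gene, had 172 counts over B220 HIGH (0, 1.59 and 7.08 CPM) and 3 over B220 LOW. Il5 had 85 counts over wt LSK and 0 over iMLL-ENL total. Csf1 measured 35.7, 23.4 and 18.9 CPM in B220 HIGH and 12.3, 2.75 and 2.29 CPM in B220 LOW, without overlap, but with an edgeR adjusted p of 0.479. Il6 measured 13.2, 0.648 and 24.2 CPM in B220 HIGH and 2.16, 0 and 0 CPM in B220 LOW, with an edgeR adjusted p of 0.707.

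Downstream of the receptors, 3 of 11 JAK and STAT genes tested fell in iMLL-ENL total (Jak3, Stat4 and Stat5a) and none rose, beside 30.6% of all genes called. Stat6 and Tyk2 had log2 changes of 0.74 and 0.58 that did not pass the edgeR test (adjusted p 0.109 and 0.104). The list's median log2 change was -0.44, against 0.05 over all genes tested. Jak3, the kinase that works with the common gamma chain, fell from 85.3 ± 8.0 to 20.6 ± 6.1 CPM (SD, n = 3) with an edgeR adjusted p of 0.000899. Stat4, a factor of IL-12 signalling, fell from 124 ± 9.5 to 36.3 ± 15 CPM (SD, n = 3) with an edgeR adjusted p of 0.00803. Of 15 feedback inhibitor genes tested 4 fell (Socs2, Cish, Socs3 and Socs5), beside 15.1% of all genes, while Socs4, Socs6 and Socs7 had log2 changes of 0.02, 0.18 and 0.19 with no call. Socs2 had 523 counts over the wt LSK libraries and 12 over iMLL-ENL total, at 9.31 ± 2.5 and 0.199 ± 0.099 CPM (SD, n = 3), a log2 change of -5.39 ± 0.61 (SE) with an edgeR adjusted p of 0.000434. The 2 that rose were Cbl and Ptpn6, the latter encoding the phosphatase SHP-1, at 210 ± 51 against 83.6 ± 12 CPM (SD, n = 3) with an edgeR adjusted p of 0.00196.

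Of 14 STAT target genes tested 3 rose and 5 fell, beside 15.5% and 15.1% of all genes. Of those that fell, 3 (Socs2, Cish and Socs3) are feedback inhibitors just named. The D-type cyclin gene Ccnd2 had the smallest p, at 12.1 CPM in iMLL-ENL total and 322 CPM in wt LSK by group means, with an edgeR adjusted p of 1.43e-05. By group means Cish measured 12.3 CPM in wt LSK, 2.48 CPM in iMLL-ENL total, 33.5 CPM in B220 LOW and 41.5 CPM in B220 HIGH. Socs3 measured 23.3, 3.04, 3.42 and 4.86 CPM in the same groups. Nothing was tested across the 2 count tables. Of 15 genes of CSF1R and of PI3K and MAPK signalling 5 rose and none fell, with a median log2 change of 0.33, beside 30.6% of all genes called and 15.5% called higher. They included the Src family kinase gene Lyn, at 460 ± 151 against 147 ± 27 CPM (SD, n = 3) with an edgeR adjusted p of 0.00222. Fgr and Tyrobp, which also rose, are expressed mainly in myeloid cells, and most of the monocyte markers given for Csf1r moved with them. Of 9 genes of gp130 partners and receptor shedding, 2 fell (Il27ra and Ctf1) and none rose, and Ctf1 lost its edgeR call without wt LSK replicate 1 (adjusted p 0.0768) or 3 (0.0665).

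Other haematopoietic growth factor receptors went both ways, 4 of 15 higher and 6 lower, beside 15.5% and 15.1% of all genes. Kit, the stem cell factor receptor gene used in the LSK gate, fell from 1161 ± 164 to 123 ± 32 CPM (SD, n = 3) with an edgeR adjusted p of 8.59e-05. All 10 markers of stem cells and LSK fell, and their sum was 288 to 522 CPM in iMLL-ENL total and 3755 to 4287 CPM in the controls. Between B220 HIGH and B220 LOW, where edgeR without a block called 0% of all genes, it called none of these 7 lists either. DESeq2 called 3 of their genes, Csf1 (adjusted p 0.0488), Bcl6 (0.000139) and Il7r (0.00182), and edgeR with the replicate block called none.

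**Figure D4:**
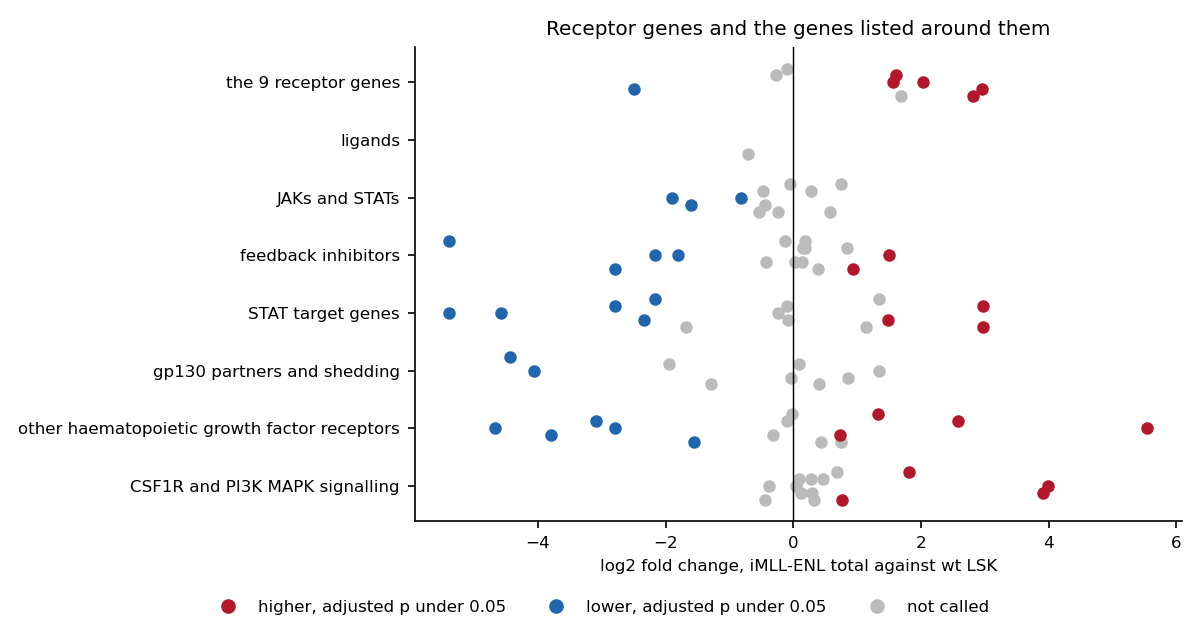
edgeR log2 fold changes in iMLL-ENL total against wt LSK for the 9 receptor genes and tested genes of 7 lists around them, 1 point a gene, coloured by the call; vertical offsets only separate points. 5 receptor genes and 4 drawn genes of CSF1R and PI3K MAPK signalling are higher, whereas no gene of the JAK and STAT list is. Genes not reported here are not drawn.

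The 250 bases before the start site are shown for the called genes Csf2ra, Csf2rb2 and Il6ra and for Csf3r, which was not called, from RefSeq's promoter table (GRCm38.p6), which matched 7 of the 9 members. Capitals mark GAGGAA or its reverse complement, the core letters bound by the myeloid factor PU.1. The windows are chr19:61228419-61228668 (minus strand) for Csf2ra, chr15:78305722-78305971 (minus strand) for Csf2rb2, chr3:89913197-89913446 (minus strand) for Il6ra and chr4:126024409-126024658 (plus strand) for Csf3r, each written 5′ to 3′ on the gene's strand. The Csf3r window lies wholly inside the gene span given above (126023441 to 126044975), so its start site is not the outermost one. The Csf2ra window reaches into its gene span, which ends at 61228461.
Csf2ra: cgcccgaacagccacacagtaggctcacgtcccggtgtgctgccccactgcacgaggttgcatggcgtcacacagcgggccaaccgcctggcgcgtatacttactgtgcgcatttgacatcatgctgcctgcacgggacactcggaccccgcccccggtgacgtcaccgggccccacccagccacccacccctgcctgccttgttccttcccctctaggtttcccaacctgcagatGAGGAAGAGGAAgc
Csf2rb2: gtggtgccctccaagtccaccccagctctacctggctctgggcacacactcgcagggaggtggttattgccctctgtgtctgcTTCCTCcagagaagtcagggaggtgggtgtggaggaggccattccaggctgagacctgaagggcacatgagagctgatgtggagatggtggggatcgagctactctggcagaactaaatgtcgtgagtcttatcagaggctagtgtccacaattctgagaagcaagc
Il6ra: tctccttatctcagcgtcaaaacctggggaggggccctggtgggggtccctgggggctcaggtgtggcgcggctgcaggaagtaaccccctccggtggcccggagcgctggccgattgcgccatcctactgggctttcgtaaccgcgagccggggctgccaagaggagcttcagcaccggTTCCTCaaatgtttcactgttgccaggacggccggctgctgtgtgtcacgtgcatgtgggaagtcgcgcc
Csf3r: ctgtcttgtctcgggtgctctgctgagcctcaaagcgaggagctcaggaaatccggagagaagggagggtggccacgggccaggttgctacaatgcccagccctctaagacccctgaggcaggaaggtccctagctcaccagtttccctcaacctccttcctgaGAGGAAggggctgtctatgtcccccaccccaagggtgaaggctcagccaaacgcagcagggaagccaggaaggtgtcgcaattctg
In the full window of 250 bases before to 50 after the start, both strands searched, Csf2ra and Csf2rb2 had 2 matches each, Csf3r, Il5ra and Il6ra 1 each, and Il3ra and Il6st none. The pair in Csf2ra lies side by side, 14 and 8 bases before the start. Of all 32851 promoter windows 28.3% held at least 1 match. The STAT-bound letters TTCNNNGAA occurred in Csf2rb2 alone of the 7, 15 bases before the start, and in 8.30% of all windows, while TGTGGT, the RUNX core, occurred in none of the 7 and in 16.8% of all windows. A match describes letters and not a bound site.

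Genes whose profile was most like that of a member were sought among 9477 genes with a mean of at least 10 CPM, by the root mean square difference of centred log2(CPM + 1) over the 12 libraries. Csf1r was nearest to Cd33 (0.53), a myeloid lectin gene, and Smpdl3a (0.59). Csf2ra was nearest to Baz1a (0.37) and Nin (0.38), and Csf3r to Gm20199 (0.50) and BC035044 (0.56). Tuba1c, a tubulin gene, was among the 2 nearest to Csf2rb (0.43). For Csf2rb2 the nearest were Id2 (0.57), an inhibitor of E proteins, and Cd200r1 (0.63), an inhibitory receptor gene of myeloid cells, which measured 95.7 ± 32 CPM in B220 HIGH and 20.01 ± 7.2 CPM in B220 LOW (SD, n = 3). Il6st was nearest to Antxr2 (0.33) and Mbp (0.33), and Il6ra, the member with the widest spread, had no close match, with Itpkb (0.72) and Gria3 (0.73) first. Il3ra and Il5ra varied too little on this scale to be matched.

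Totals ran from 10921521 to 22706882 counts a library. Kmt2a and Mllt1, whose products are MLL and ENL, cannot show the fusion apart from the normal alleles in these counts: Kmt2a fell from 1337 ± 195 to 461 ± 124 CPM (SD, n = 3) with an edgeR adjusted p of 0.00446, and Mllt1 had an adjusted p of 0.542. The kit keeps no strand, so reads of genes that overlap a member cannot be told from it. Such annotated genes lie at Csf1r (Mir6983 and Gm52352), Csf2rb (Mir7676-2), Csf2rb2 (Mir7676-1), Csf3r (Gm32908) and Il6ra (Gm46811).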

How the data were processed

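RNA was measured in 12 libraries, 3 in each of 4 groups. The deposited count tables hold raw counts per gene by NCBI gene ID, wt LSK with iMLL-ENL total in one and the B220 fractions in the other. The CPM tables deposited beside them are a signal that divides those counts by 1 effective library size per library, checked against the counts. The deposited gene width (unit: other) was used for RPKM only. The PicoPure kit gave the RNA and the unstranded NuGen Ovation kit the libraries, per the labels' protocols. The submitters' processing notes name edgeR, GRCm38 and mm10, and which aligner and counter were used is not given in the sources used here. RefSeq matched 23968 of 24028 IDs.

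Tests stayed within a table: edgeR 4.0.16 quasi-likelihood (robust, two-sided), TMM, filterByExpr with a minimum count of 10, Benjamini-Hochberg over all genes tested. DESeq2 1.42.0 and limma-voom (limma 3.58.1) were alternatives, beside other scalings, filters, a fold minimum of 2 and each library left out. The edgeR fit without a block was tested on simulated counts, and the other fits and calculations were not. The members and gene lists were chosen with earlier results of these data known. Members, up to 2 called genes of each list by smallest p, and the 2 genes nearest each member were to be named. Some genes that this rule names are not reported here. Others were named to spell out a small count, and Csf1, Csf2, Il3, Il6, Cpa3, Gata2, Hdc, Ms4a2, Mcpt8, Stat6, Tyk2, Socs4, Socs6, Socs7, Bcl6, Il7r, Fcer1a, Tpsb2 and the B-lineage genes at 0 were picked after their values were seen. The same holds for Epx, Prg2, Adgre1, Cd68, Fn1, Mmp8, Elane, Mpo, Siglecf, Ly6c2, F13a1, Prtn3, Mrc1, Csf3, Il5, Cish and Socs3. The labels do not say what a replicate number means. Deviations of same-numbered B220 HIGH and B220 LOW libraries correlated at 0.397, 0.198 and 0.307, so these numbers were taken to pair the libraries. Replicates of a group differed beyond counting noise. Where they are not separate animals, p-values measure only the spread between these libraries. Ranges and floors cover counting error only.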

Additional observations from a re-analysis of the deposited data

How the results depend on the processing

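Between iMLL-ENL total and wt LSK, 4221 genes and 6 members were called, which became 2047 and 3 with a fold minimum of 2 in the test. Leaving out 1 library gave 2636 (without wt LSK replicate 3) to 4528 genes and 4 to 7 members, and 2658 genes without wt LSK replicate 1. The fold minimum ended the calls of Csf2rb2, Il5ra and Il6ra, and the replicate block (4048 genes, 5 members) and the absence of a low-count filter that of Il5ra. Same-numbered libraries of this table correlated at 0.0164, 0.160 and -0.0358 and so share only a number. The Csf3r log2 change, with 1 library left out, ran from -0.508 to 0.107, and was 0.00642 without iMLL-ENL total replicate 1.

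Between B220 HIGH and B220 LOW, where 0 genes and 0 members were called, DESeq2 called 232 and 2, limma-voom 1 and 1, edgeR with no low-count filter 22 and 1, and edgeR with the replicate block 79 and 2. Leaving out 1 library gave 0 to 96 genes (96 without HIGH replicate 1, 3 without LOW replicate 1) and 0 to 1 members. With 1 library left out the log2 change ran from -1.06 to 0.45 for Il3ra, from -0.108 to 1.53 for Il6ra, from -0.0419 (also -0.00016) to 0.478 for Kmt2a and from -0.264 (also -0.111) to 0.291 for Mllt1, so each changed sign. The cause of these changes was not tested. Il5ra had 0 to 59 counts a library, so counting error limits it. Levels over effective library sizes moved none of the 36 group means by more than 1 SD.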

Other observations

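Further haematopoietic receptor genes moved between iMLL-ENL total and wt LSK. Ifngr1, a chain of the interferon gamma receptor, measured 444 CPM against 83.4 CPM in wt LSK by group means, with an edgeR adjusted p of 9.62e-05. Il13ra1, a chain for IL-4 and IL-13, measured 45.02 against 1.103 CPM (adjusted p of 0.00206), while Il4ra, a chain of the same receptor, measured 39.4 against 55.0 CPM (adjusted p of 0.333). The common gamma chain gene Il2rg fell, at 52.3 against 171 CPM (adjusted p of 0.000655). The second interferon gamma chain gene Ifngr2 rose, at 65.9 against 29.6 CPM (adjusted p of 0.00698). The stem cell and lymphoid receptor genes Flt3 (14.2 against 405 CPM, adjusted p of 0.00124) and Il7r (6.997 against 54.8 CPM, adjusted p of 0.00999) fell in the same fit. These genes were picked after their values were seen.

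Socs2, with 12 counts over the 3 iMLL-ENL total libraries, was present in every sorted leukemic library. It measured 25.5, 53.9 and 35.0 CPM in B220 HIGH and 22.7, 12.3 and 33.2 CPM in B220 LOW, all above the 0.0881 to 0.278 CPM of iMLL-ENL total and above the 6.78 to 11.8 CPM of wt LSK. The tables were not tested against each other, and 11.7% of 12726 genes lay above total marrow in all 6 sorted libraries. Whether the Socs2 difference follows the sort or the table cannot be told apart.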
